A study of Mus musculus with 14 samples.

Results

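The 10 circadian clock genes described here are Arntl (also called Bmal1), Clock, Per1, Per2, Per3, Cry1, Cry2, Nr1d1, Nr1d2 and Dbp. They were taken by symbol from the deposited RNA-seq tables of mouse hind limb skeletal muscle, which list 49585 genes. Each of the 10 was found and passed the filter on low values in every comparison. The libraries form 4 groups of 3, uninjured WT, uninjured KO, injured WT and injured KO, where WT stands for wild type and KO for Myf6 knockout mice. Myf6 (MRF4) is 1 of the 4 myogenic regulatory factors, which switch on muscle genes. A Flag ChIP-seq peak list for Myf6 from primary myotubes, with 1 ChIP and 1 control library, completes the series. The knockout allele, the strain, the age and sex of the animals, the kind of injury, the time after it and the time of day at which muscle was taken are not given in the sources used here.

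The clock is a transcriptional feedback loop that nearly every cell runs. CLOCK and BMAL1 bind E-box DNA and switch on the Per and Cry genes, whose proteins later enter the nucleus and block CLOCK and BMAL1. In a second loop, the nuclear receptors REV-ERBα (Nr1d1) and REV-ERBβ (Nr1d2) are themselves switched on by CLOCK and BMAL1 and repress Arntl, and DBP carries the rhythm to output genes through D-box DNA. Skeletal muscle has a strong clock of its own, and the RNA of most of these genes rises and falls over the day, so a single sampling gives a level and not a rhythm.

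Each table column carries a number that occurs once among the uninjured and once among the injured libraries of a genotype. After the number stands the letter L in every uninjured and R in every injured library. What the letters stand for is not given in the sources used here, and injury cannot be told apart from it. The number is read here as naming the animal, which gives 3 WT and 3 KO animals with 2 libraries each. Nothing else in the labels says which libraries are from separate animals, so the p-values measure the spread between these libraries. WT and KO animals have different numbers, and genotype cannot be told apart from litter or batch. Myf6 itself was at 25.0 to 121 RPM (reads assigned to the gene, scaled to 1000000 per library) in the 6 WT libraries and at 1.86 to 3.46 RPM in the KO libraries. The muscle fibre markers (Ckm, Acta1 and the myosin heavy chains Myh1, Myh2, Myh4 and Myh7) summed to at least 70924 RPM in every library. Depth ranged from 1880087 reads, in uninjured WT replicate 2, to 49392472. A member gene had fewer than 20 reads in 2 of 120 gene and library combinations, both of them Arntl. A pair of libraries stood apart, both from KO animal 2. Their mitochondrial genes took 15.3% (uninjured) and 23.2% (injured) of reads, against 3.63% to 6.76% in the other KO libraries and 8.35% to 22.3% in WT.

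Promoter sequence was available for 9 of the 10 genes, as windows from 250 bases before to 50 after each RefSeq gene start (build GRCm38.p6). Perfect matches to an E-box (CACGTG, which reads the same on both strands) lay in 2 of the 13 windows of these genes, those of Per1 and Cry1, against 7.84% of all 21262 windows. The D-box TTATGTAA (either strand) lay in 1 of the 13, that of Per3, and in 0.894% of all windows. The core of the ROR and REV-ERB response element, AGGTCA on either strand, lay in 4 of the 13 (1 each of Arntl, Clock, Per1 and Nr1d2) and in 14.7% of all windows. Genes with several starts have several windows. Shown are the stretches around the matches in Per1 and Cry1, the E-box genes, and in Per3 and Nr1d2, the genes with the lowest p-values between KO and WT in uninjured muscle. Capitals mark the match, and positions count back from the gene start.
Per1 (chr11:69098757-69098814, plus strand, E-box starting at position -166): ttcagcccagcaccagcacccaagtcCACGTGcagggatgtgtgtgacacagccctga
Cry1 (chr10:85185083-85185140, minus strand, E-box starting at position -60): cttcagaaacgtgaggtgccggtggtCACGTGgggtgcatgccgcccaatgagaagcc
Per3 (chr4:151044790-151044896, minus strand, D-boxes starting at positions -205 and -158): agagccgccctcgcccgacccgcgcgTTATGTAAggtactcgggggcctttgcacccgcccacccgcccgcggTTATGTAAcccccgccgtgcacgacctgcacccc
Nr1d2 (chr14:18239152-18239209, minus strand, AGGTCA starting at position -77): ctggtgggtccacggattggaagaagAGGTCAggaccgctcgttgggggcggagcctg
These matches describe the letters of the windows and are not measured binding sites.

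In uninjured muscle, none of the 10 clock genes differed between KO and WT at an adjusted p under 0.05 (limma with Benjamini-Hochberg adjustment over 12460 genes). In the same fit 35 genes, or 0.281%, passed. Nr1d2 came closest, at 2.52-fold lower mean RPM in KO. The estimate was below 0 for all 10 genes, with a median KO minus WT difference of -0.64 in log2(RPM + 1), while the median of all genes was -0.18. TMM scaling, which aligns the bulk of genes between libraries, moved the median of all genes to 0.02 and that of the clock genes to -0.43, and turned the estimates of Cry2, Nr1d1 and Dbp above 0. Unadjusted p-values were under 0.05 for 2 of the 10, Nr1d2 and Per3, both lower in KO, against 10.7% of all genes in that direction. The KO and WT libraries did not overlap, with KO lower, for 3 of the 10 (Nr1d2, Per3 and Per2) against 15.5% of all genes. In injured muscle, again none of the 10 passed (limma), where 0.269% of 12625 genes did. Estimates were below 0 for 7 of the 10, with a median of -0.29 against 0.01 for all genes. Without injured KO replicate 2 these medians were -0.066 and 0.03, and Cry1 and Nr1d1 were above 0 and Dbp below it. Nr1d2 was the 1 member with an unadjusted p under 0.05, against 5.26% of all genes that were lower in KO. It was also the 1 member without overlap and lower in KO, against 8.63% of all genes, and Cry2 was the 1 without overlap and higher, against 8.29%. Without uninjured KO replicate 2 again 0 passed in uninjured muscle, the median of the clock genes was -0.27, and Cry2, Nr1d1 and Dbp were above 0. On the recovered reads, edgeR called none in either state, and DESeq2 called Nr1d2 in uninjured muscle (adjusted p = 0.0190, with 2.58% of all genes called lower) and none in injured muscle.

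**Figure D1:**
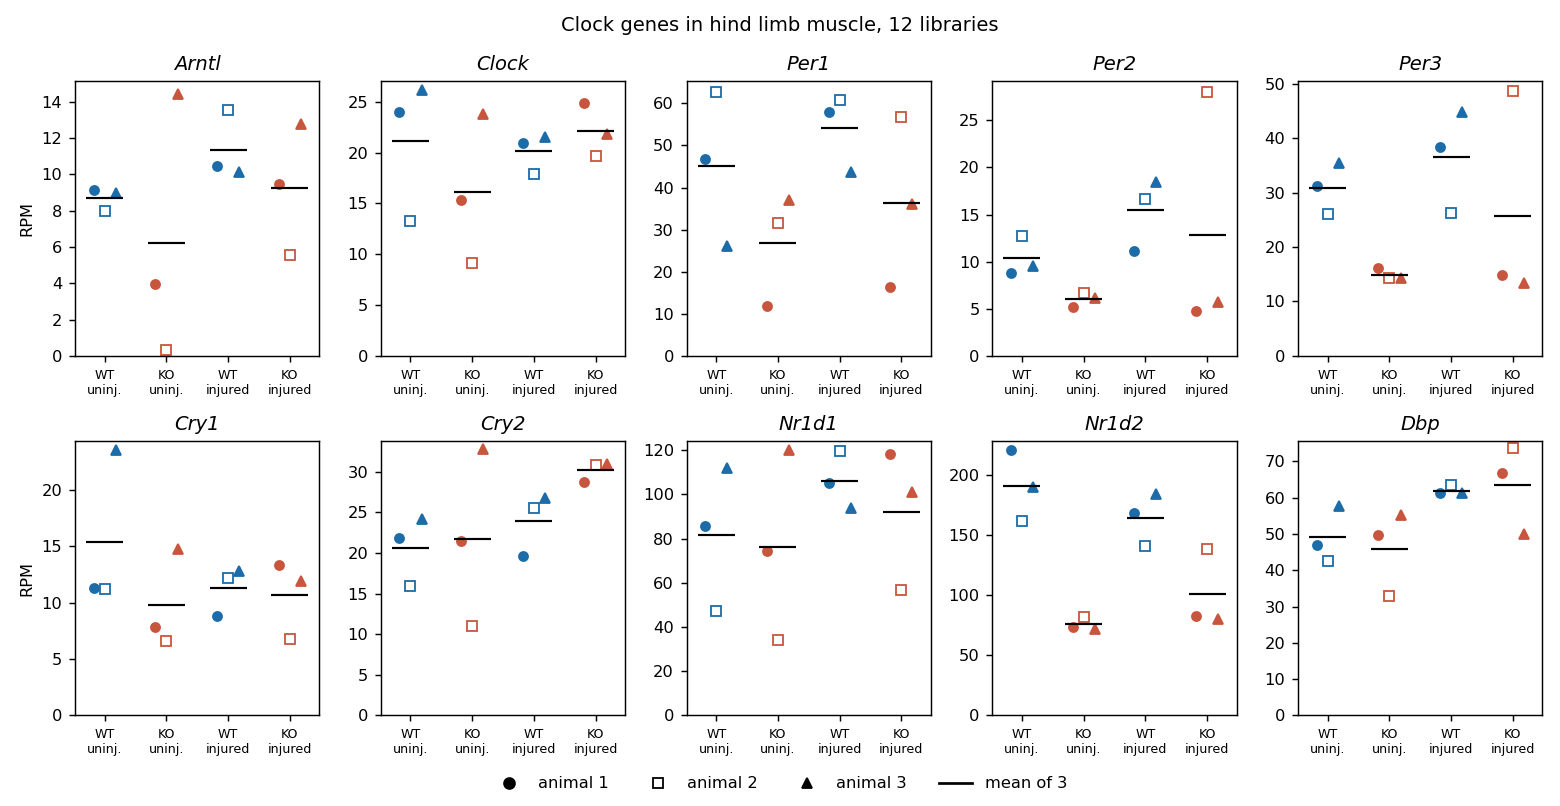
RPM of each clock gene (vertical axes) in the 12 libraries by group, with 1 point per library and bars at the mean of 3. Nr1d2 lies at 71.8 to 82.0 RPM in uninjured KO and at 162 to 221 RPM in uninjured WT, and a single injured KO library lies above the other 2 for Per2 and Per3.

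The activators Arntl and Clock form the positive limb. Arntl was at 9.11, 7.98 and 8.96 RPM in uninjured WT (replicates 1, 2 and 3) and at 3.96, 0.315 and 14.4 RPM in uninjured KO. With injury, WT libraries held 10.4, 13.6 and 10.1 RPM and KO libraries 9.45, 5.53 and 12.8 RPM. The KO libraries lay on both sides of the WT libraries in uninjured muscle, and the lowest value, in KO replicate 2, rested on 4 reads. The KO minus WT difference in uninjured muscle was -1.06 ± 0.75 (SE, log2 scale; limma, adjusted p = 0.566), and it was -0.15 without KO replicate 2. In injured muscle it was -0.33 ± 0.30 (limma, adjusted p = 0.750), with a range of -0.57 to -0.033 when 1 library was left out. Clock, the DNA-binding partner of BMAL1, was at 24.0, 13.3 and 26.2 RPM in uninjured WT, at 15.3, 9.13 and 23.8 RPM in uninjured KO, at 20.9, 17.9 and 21.5 RPM in injured WT and at 24.9, 19.7 and 21.8 RPM in injured KO. All groups of Clock overlapped. Its KO minus WT difference was -0.41 (limma, 95% interval -1.35 to 0.52) in uninjured and 0.13 (-0.28 to 0.54) in injured muscle. With 1 library left out the uninjured value ranged from -0.73, without KO replicate 3, to -0.084, without KO replicate 2.

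The Per genes encode the repressors of the negative limb. Per3, the least essential of the 3 for the core rhythm, was at 31.3, 26.1 and 35.4 RPM in uninjured WT and at 16.2, 14.2 and 14.4 RPM in uninjured KO. Every KO library was below every WT library. The difference was -0.99 ± 0.28 (SE), with an adjusted p of 0.175 (limma; 0.00599 unadjusted). With injury, Per3 stood at 38.3, 26.3 and 44.9 RPM in the WT libraries, and the KO libraries held 14.8, 48.7 and 13.4 RPM. Here KO replicate 2 was the highest of the 6 libraries and the other 2 KO libraries were the lowest. The difference in injured muscle was -0.71 ± 0.49 (limma, adjusted p = 0.659).

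Per2, a core repressor, had the same layout. It was at 8.79, 12.8 and 9.55 RPM in uninjured WT and at 5.21, 6.69 and 6.15 RPM in uninjured KO, without overlap (difference -0.69 ± 0.33, limma, adjusted p = 0.383). The injured WT libraries held 11.2, 16.6 and 18.5 RPM and the injured KO libraries 4.74, 28.0 and 5.69 RPM, where replicate 2 was again the highest of all (-0.64 ± 0.60, limma, adjusted p = 0.756). Per1, which also responds directly to hormones and other acute signals, was at 46.7, 62.8 and 26.2 RPM in uninjured WT and at 11.8, 31.6 and 37.0 RPM in uninjured KO. After injury the WT libraries held 57.8, 60.7 and 43.6 RPM of Per1 and the KO libraries 16.3, 56.7 and 36.2 RPM. Its groups overlapped in both states, and the differences were -0.80 ± 0.47 (limma, adjusted p = 0.488) and -0.71 ± 0.42 (limma, adjusted p = 0.609). Without KO replicate 1 they were -0.31 and -0.24. With any 1 library left out, Per1 ranged from -1.14 to -0.31 in uninjured and from -1.11 to -0.24 in injured muscle, and the injured differences of Per2 and Per3 ranged from -1.38 to -0.21 and from -1.28 to -0.39.

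The injured comparison depended on injured KO replicate 2. Without it, limma called 4 of the 10 genes, all lower in KO, while 9.54% of all genes were called lower and 19.0% in either direction. The 4 were Per2 (difference -1.38, adjusted p = 0.0128), Per3 (-1.28, adjusted p = 0.0144), Nr1d2 (-0.99, adjusted p = 0.0105) and Per1 (-1.11, adjusted p = 0.0489), all by limma. Leaving out any other injured library gave 0 clock genes, but also 0 genes over the whole table. In that KO library the muscle fibre markers summed to 76671 RPM, against 103927 and 106965 RPM in the other injured KO libraries. Its hemoglobin and Alas2 RNA summed to 583 RPM, against 151 and 261 RPM. Its endothelial markers summed to 359.6 RPM, against 235 and 209 RPM, and its adipocyte markers to 60.6 RPM, against 399.6 and 198 RPM. These values and its mitochondrial share of 23.2% come from 1 library, where the Per genes and Nr1d2 were highest among injured KO libraries. Its fibre sum lay within the injured WT range (75945 to 94855 RPM). In the uninjured library of that animal, Per2, Per3 and Nr1d2 were near the other KO animals. Among uninjured KO libraries it had the highest hemoglobin and Alas2 sum (401 RPM) and the lowest adipocyte sum (117 RPM). It also had the highest fibre sum (123203 RPM) and the lowest endothelial sum (175 RPM). The part of these levels in the result was not tested.

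**Figure D2:**
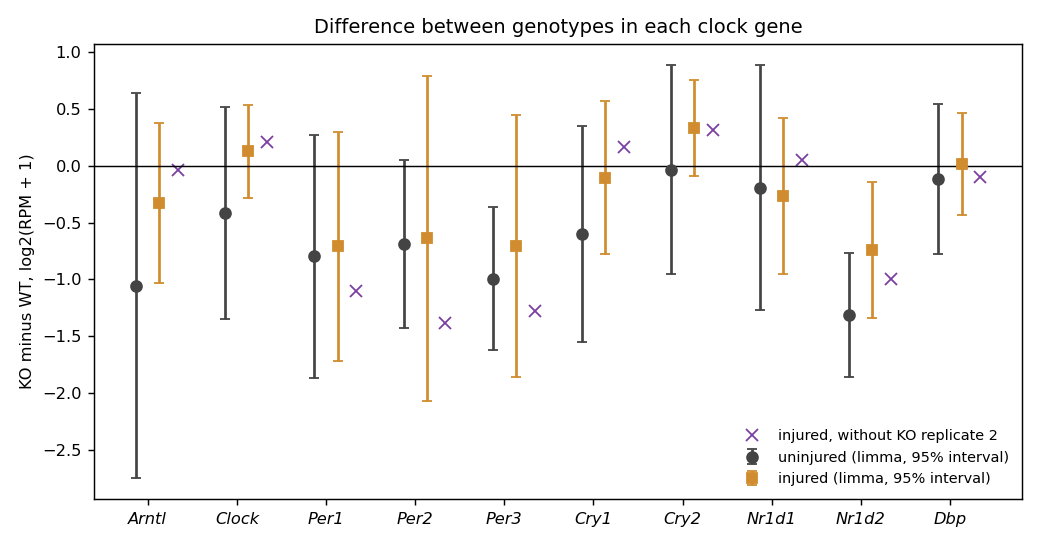
KO minus WT difference on the log2(RPM + 1) scale (vertical axis) of each clock gene (horizontal axis), with its 95% limma interval. Circles are uninjured muscle, squares injured muscle and crosses injured muscle without KO replicate 2. The uninjured intervals of Nr1d2 and Per3 and the injured interval of Nr1d2 end below 0. The crosses of Per1, Per2, Per3 and Nr1d2 lie between -1.38 and -0.99.

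The cryptochromes Cry1 and Cry2 are the partners of the PER proteins in repression. Cry1 was at 11.3, 11.2 and 23.5 RPM in uninjured WT and at 7.87, 6.61 and 14.7 RPM in uninjured KO, and at 8.78, 12.2 and 12.8 RPM in injured WT and 13.3, 6.75 and 11.9 RPM in injured KO. Both states overlapped, with differences of -0.60 ± 0.42 (-0.91 to -0.26 with 1 library left out) and -0.10 ± 0.28. Cry2 was at 21.9, 16.0 and 24.2 RPM in uninjured WT and at 21.5, 11.0 and 32.8 RPM in uninjured KO, a difference of -0.03 (limma, 95% interval -0.95 to 0.89) that became 0.19 with TMM scaling. The injured WT libraries held 19.6, 25.5 and 26.8 RPM of Cry2 and the injured KO libraries 28.7, 30.9 and 31.0 RPM. Every injured KO library was above every injured WT library, and the difference of 0.33 ± 0.18 did not pass (limma, adjusted p = 0.573).

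Nr1d2 (REV-ERBβ), a repressor of Arntl, showed the smallest p-value of the 10 in both states. The uninjured WT libraries held 221, 162 and 190 RPM and the uninjured KO libraries 73.6, 82.0 and 71.8 RPM. No KO library reached the lowest WT library. The WT mean was 191 ± 29.8 RPM (SD, n = 3) and the KO mean 75.8 ± 5.46 RPM (SD, n = 3). The difference was -1.31 ± 0.24 (SE, 95% interval -1.86 to -0.77), with an adjusted p of 0.0646 (limma; 0.000400 unadjusted). In the authors' deposited table its q-value was 0.0915. With injury, Nr1d2 stood at 169, 141 and 184 RPM in the WT libraries, and the KO libraries held 83.0, 139 and 80.4 RPM. The highest KO library, replicate 2, reached nearly to the lowest WT library, and the difference was -0.74 ± 0.25 (limma, adjusted p = 0.404), with a q-value of 0.779 in the authors' deposited table. In order of mean level, uninjured WT was followed by injured WT (164 RPM), injured KO (101 RPM) and uninjured KO. The neighbours in this order overlapped except injured WT and injured KO.

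Its paralog Nr1d1 (REV-ERBα) did not show this layout. It was at 85.5, 47.3 and 112 RPM in uninjured WT and at 74.3, 33.9 and 120.0 RPM in uninjured KO, and at 105, 119 and 93.8 RPM in injured WT and 118, 56.7 and 101 RPM in injured KO. Replicate 2 was the lowest library in 3 of the 4 groups. The KO minus WT differences were -0.19 (95% interval -1.27 to 0.89, limma), which was 0.04 with TMM scaling, and -0.26 (-0.95 to 0.42). The 3′ end of Nr1d1 overlaps Thra by 1075 bases in the RefSeq annotation. The treatment of strand in counting is not given in the sources used here, so reads of that stretch cannot be assigned to 1 gene with certainty. The same holds where Dbp meets Sphk2 (741 bases) and where Uts2 lies inside Per3.

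Dbp, the output factor with one of the steepest daily rhythms in many tissues, overlapped between genotypes in both states. It was at 47.0, 42.6 and 57.7 RPM in uninjured WT, at 49.7, 33.0 and 55.2 RPM in uninjured KO, at 61.3, 63.4 and 61.3 RPM in injured WT and at 66.7, 73.7 and 50.03 RPM in injured KO. The KO values spanned the WT values in injured muscle. The differences were -0.11 (95% interval -0.78 to 0.55, limma), 0.12 with TMM scaling, in uninjured muscle and 0.02 (-0.43 to 0.46) in injured muscle.

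Levels of cell type markers in the uninjured groups are set beside these results. Summed fibro-adipogenic progenitor markers (Pdgfra, Dcn, Dpt and Ly6a) ranged from 327 to 821 RPM in WT and from 193 to 376 RPM in KO, with some overlap, and all 4 estimates were lower. Satellite cell markers (Pax7, Myf5, Calcr and Chodl) summed to 17.9 to 26.2 RPM in WT and 5.75 to 12.1 RPM in KO. Chodl was the largest part of that sum, at a mean of 15.3 RPM in WT and 4.05 RPM in KO. The estimates of Chodl (-1.74) and Pax7 (-0.47) were lower and that of Myf5 was 0.04, and Calcr did not pass the filter. Macrophage markers summed to 38.3 to 71.6 RPM in WT and 27.2 to 39.5 RPM in KO, with all 5 estimates lower. Muscle fibre markers ran the other way, at 70924 to 85688 RPM in WT and 112520 to 123203 RPM in KO, with all 6 estimates higher, as did the 4 adipocyte markers, at 40.4 to 154 and 117 to 293 RPM. Endothelial markers summed to 171 to 212 RPM in WT and 175 to 219.7 RPM in KO, and hemoglobin and Alas2 RNA to 335 to 550.5 and 163 to 401 RPM. None of the markers tested passed at an adjusted p of 0.05 (limma). Among defining markers, Myf5 was at 0 in uninjured WT replicate 2, and Calcr and Ptprc were at 0 in uninjured KO replicate 2. The part of these levels in the lower Nr1d2, Per3 and Per2 values of KO muscle was not tested. In bulk muscle, fewer cells of a type and less RNA per cell cannot be told apart.

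A wider list of 21 clock genes held modulators of the loop, such as the ROR receptors and casein kinases. In uninjured muscle 18 were tested and 0 passed (limma), 14 of the estimates were lower in KO, and their median was -0.26 against -0.18 for all genes. Among the smallest p-values were those of Timeless (-0.92, adjusted p = 0.296, limma) and Hlf, a relative of Dbp (0.83, adjusted p = 0.373). In injured muscle 0 of 19 passed and 9 estimates were higher. Among the smallest p-values there were those of Nfil3, which competes with DBP at D-boxes (-0.57, adjusted p = 0.580, limma), and Npas2, a paralog of Clock (-0.40, adjusted p = 0.620).

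Of 6 muscle genes known as clock-controlled, none passed in either state (limma). Dgat2, an enzyme of triglyceride synthesis, had the largest differences, 2.13 in uninjured (adjusted p = 0.149) and 2.19 in injured muscle (adjusted p = 0.427, limma). Tcap, a titin-binding protein, was at 0.94 (adjusted p = 0.309) and 0.42 (adjusted p = 0.589), and Ucp3 was at -0.56 and -0.24. Since Per1 is also a glucocorticoid target, 8 other glucocorticoid-responsive genes were examined, and none passed. Of the 8 estimates, 6 were lower in KO in uninjured and 3 in injured muscle. The kinase gene Sgk1 had differences of -1.91 (adjusted p = 0.151) in uninjured and -1.23 (adjusted p = 0.105, limma) in injured muscle. Its KO libraries were below its WT libraries without overlap in both states, against 15.5% and 8.63% of all genes. Tsc22d3 (GILZ) was at -1.01 (adjusted p = 0.219) and -0.68 (adjusted p = 0.523). Fkbp5 was at 0.44 in uninjured muscle and Cdkn1a at 0.80 in injured muscle (adjusted p = 0.251, limma).

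Injury was compared with its absence within each genotype, in fits without an animal term. None of the clock genes passed, nor did any gene, in WT or KO (0.00% of 13337, limma), and edgeR and DESeq2 also called 0 genes. Unadjusted p-values were under 0.05 for 172 genes in WT and 468 in KO, which is 1.29% and 3.51%, and for 0 of the 10 clock genes. In WT, 7 of the 10 estimates were above 0, with a median of 0.27 against 0.09 for all genes. Without uninjured WT replicate 2, the shallowest library, the medians were 0.10 and -0.0071. Arntl and Dbp were higher in every injured than in every uninjured WT library, 2 of 10 against 7.48% of all genes, with differences of 0.34 ± 0.64 and 0.34 ± 0.24 (SE). In KO 0 of the 10 were without overlap, where 6.12% of all genes were so and higher with injury. All 10 estimates were above 0 there, with a median of 0.48, but the median of all genes was 0.29. Without uninjured KO replicate 2 these medians were 0.22 and 0.099, and Cry1 and Nr1d1 were below 0. TMM scaling moved the medians over all 12 libraries to 0.22 and 0.07 and turned Cry1 to -0.10. The largest KO estimate was that of Arntl, 1.07 ± 0.64 (limma, adjusted p = 0.728), with the library of 4 reads among its uninjured values, and it was 0.16 without that library and 1.94 without uninjured KO replicate 3. The injury difference itself did not differ between genotypes for any of the 10 at an adjusted p under 0.05 (limma interaction, 0.00% of all genes).

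**Figure D3:**
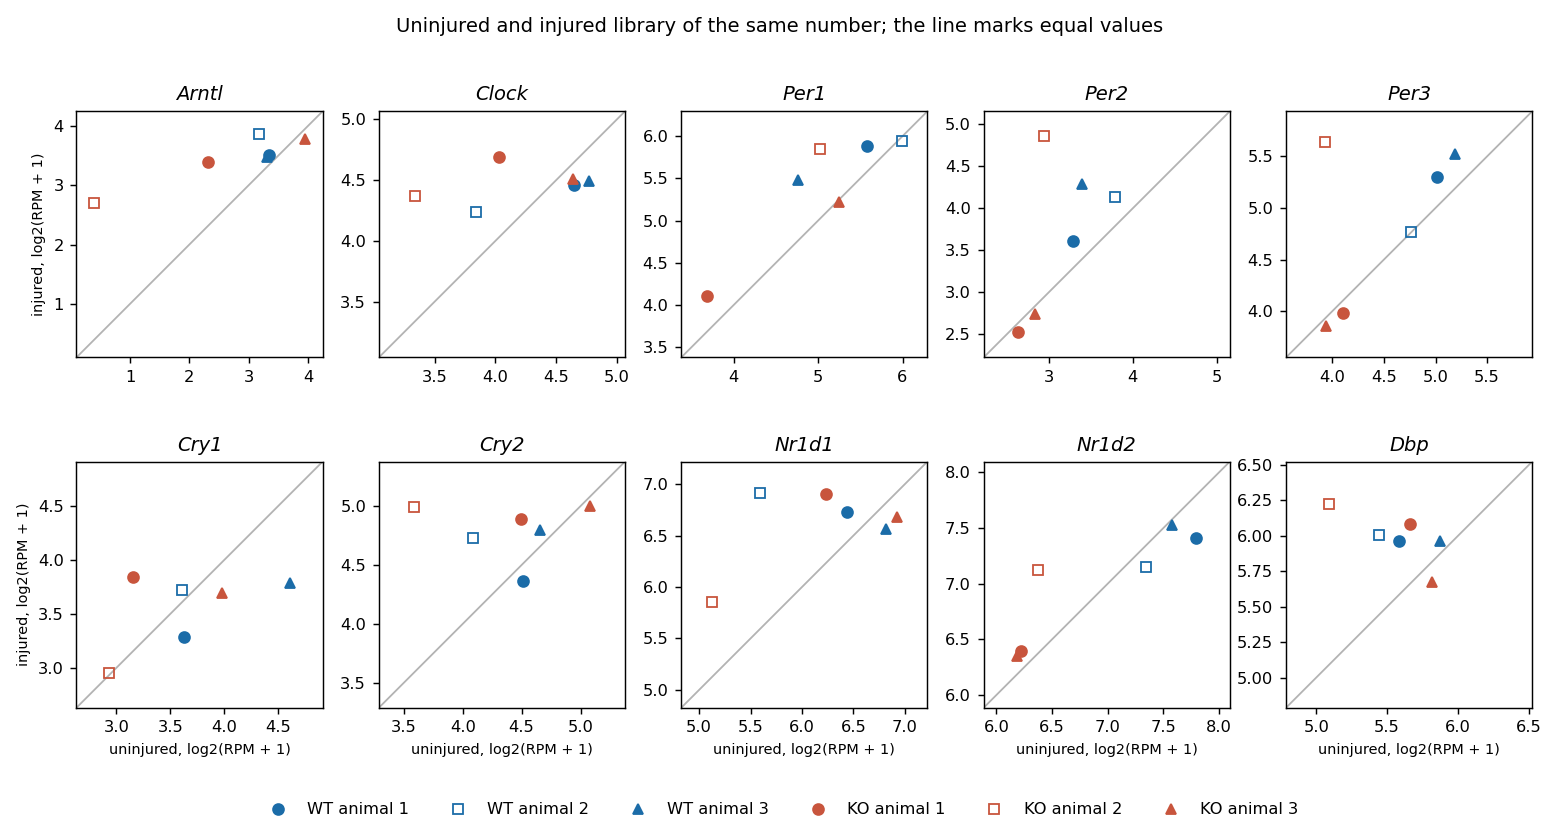
Levels of the clock genes as log2(RPM + 1) in the injured library (vertical axis) against the uninjured library (horizontal axis) of the same animal number. There is 1 point per animal, 3 WT and 3 KO, and the line marks equality. Per2 and Per3 of KO animal 2 lie far above the line. Per2 goes from 2.94 to 4.86 (6.69 to 28.0 RPM) and Per3 from 3.93 to 5.64 (14.2 to 48.7 RPM).

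The uninjured and injured libraries of an animal give a measure of how far a level belonged to the animal. An F-test over animals within genotype (limma, all 12 libraries) called 0 of the 10 genes, where 0.0525% of 13337 genes passed. At an unadjusted p under 0.05 it found 3 of the 10, against 17.6% of all genes. The 3, by limma, were Per1 (F = 9.96, adjusted p = 0.124, 0.00133 unadjusted), Arntl (adjusted p = 0.189, 0.0148 unadjusted) and Nr1d1 (adjusted p = 0.243, 0.0317 unadjusted). Per1 was lowest in KO animal 1 in both of its libraries, at 11.8 and 16.3 RPM, and lowest in WT animal 3 in both, at 26.2 and 43.6 RPM. The mean difference of Per1 between the 2 libraries of an animal was 0.43 in KO and 0.35 in WT on the log2 scale, against 1.103 and 0.57 between animals in the same state. Per1 passed when either library of WT animal 2 was left out (limma, adjusted p = 0.0461 without the uninjured and 0.0355 without the injured one, where 4.08% and 5.19% of genes passed).

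Arntl, Clock and Nr1d1 were lowest among KO animals in animal 2, in both states. By contrast, Per2, Per3 and Nr1d2 of KO animal 2 were near the other KO animals without injury and stood 1.91, 1.71 and 0.75 higher with injury (log2 scale). In Per2 the same difference was -0.11 and -0.10 in the other 2 KO animals, and the test of injury in KO did not pass for Per2, Per3 or Nr1d2 (limma, adjusted p = 0.733, 0.729 and 0.728). For 6 of the 10 genes in WT and 6 in KO, the difference within animals was on average smaller than that between them, and for 3 genes in both. Dbp went the other way in both genotypes, at 0.34 within and 0.16 between WT animals and 0.56 and 0.43 in KO.

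**Figure D4:**
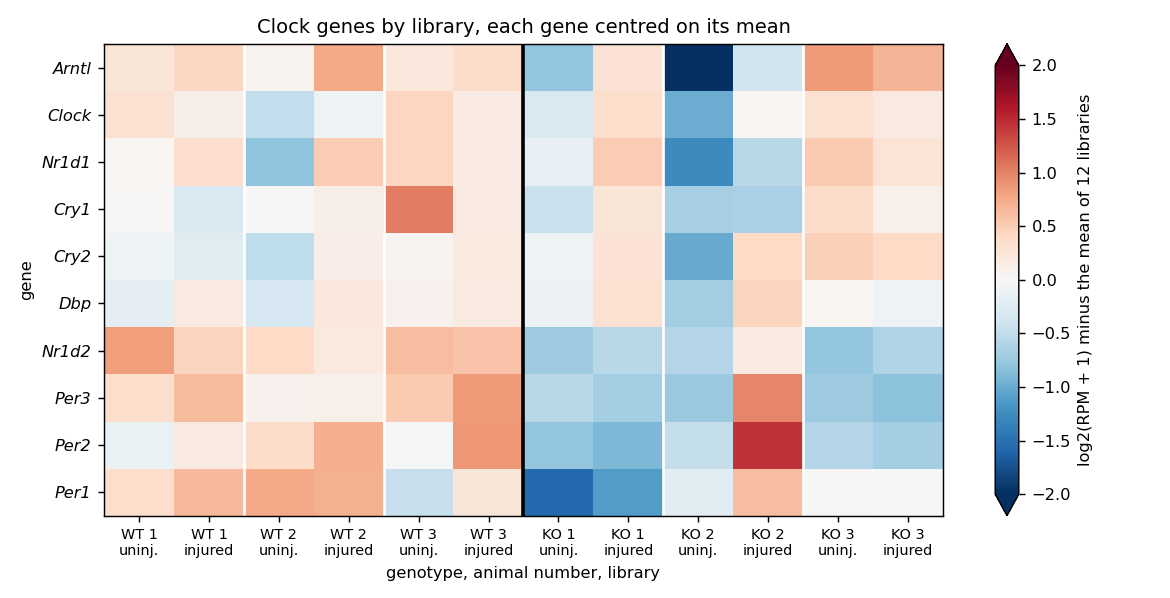
Clock genes (rows) in the 12 libraries (columns, uninjured then injured for each of WT animals 1 to 3 and KO animals 1 to 3), as log2(RPM + 1) minus the gene's mean over the 12 libraries, with colours limited at 2 above and below. Arntl is lowest in the uninjured library of KO animal 2, and Per2 is highest in the injured library of that animal.

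Across the 12 libraries the members varied in 2 sets, chosen after their values were seen and described here by Pearson's r on log2(RPM + 1) over all 45 pairs. Clock went with Nr1d1 (r = 0.85), Arntl with Nr1d1 (0.83) and with Clock (0.80), and Clock with Cry2 (0.82). For likeness to Arntl, Nr1d1 ranked 1065 and Clock 1408 among 9173 genes with a mean of at least 5 RPM. Such ranks were computed for Arntl and Dbp only. Per3 went with Nr1d2 (0.87) and with Per2 (0.86). Between the sets r was 0.14 for Arntl with Per2, -0.15 for Per2 with Nr1d1 and 0.27 for Arntl with Nr1d2. With the group means removed these were -0.29, -0.54 and -0.41, while Per3 with Nr1d2 was at 0.91 and Arntl with Nr1d1 at 0.83. Other pairs between the sets were nearer 0 on that scale. With Per2, Per3 and Nr1d2 in turn, Clock was at -0.30, 0.039 and 0.00082, and Cry2 at 0.0019, 0.10 and -0.035. The libraries differ in depth and come in pairs from 6 animals, and several of these values rest on few libraries. Without uninjured KO replicate 2, r of Arntl was 0.45 with Clock and 0.66 with Nr1d1. Per2, Per3 and Nr1d2 were each highest among injured KO libraries in replicate 2, and their r without that library was not computed.

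Among 9173 genes with a mean of at least 5 RPM, those most like Arntl were Usp37 (r = 0.98), Edem3 (0.98), Phkg1 (0.98), Rere (0.98) and Jak2 (0.97), and those most unlike it were 2010320M18Rik (-0.93), Zfp622, Rpsa (-0.92), Ufsp1 and Cuedc2 (-0.90). Without uninjured KO replicate 2, r with Arntl was 0.88 (Jak2) to 0.96 (Phkg1) for the 5 most like it, and -0.86 (Rpsa) to -0.62 (Cuedc2) for the 5 most unlike it. Dbp was most like Atxn7l3b (0.93), Ankrd24, Ap1m1, Piezo1 and Hirip3 (0.91), and most unlike Mrpl37 (-0.85), Haus1, Klhl25, Ogfod3 and Ecsit (-0.75). Without that library r with Dbp was 0.83 (Hirip3) to 0.86 (Atxn7l3b) and -0.70 (Mrpl37) to -0.48 (Ogfod3). No clock gene was among these 20 genes. Of the wider clock list, Cipc ranked 105 of 9173 for likeness to Arntl (r = 0.94, and 0.70 without uninjured KO replicate 2) and 249 for likeness to Dbp. The highest ranks of a member were 1065 (Nr1d1, for Arntl) and 268 (Cry2, for Dbp).

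Flag-Myf6 peaks were read from the authors' list of 12898 peaks in myotubes, with distances to the RefSeq starts of the 9 genes matched. A summit lay within 10 kb of the start of 1 of the 9, Nr1d2, against 17.8% of 9657 protein-coding genes tested in muscle. That peak, at chr14:18241925-18242067, has its summit 2902 bases upstream of the start, with a fold enrichment of 9.21 by the authors. Within the Arntl gene (chr7:113178471-113314126) lay 3 peaks, the nearest with its summit 13534 bases downstream of the start (chr7:113220897-113221171, fold 21.2). The share of all genes with peaks inside the gene was not computed. The nearest summits to Nr1d1 and Per3 were 11833 and 23517 bases upstream, and Cry1 had 1 within the gene, 35580 bases downstream. For Clock the nearest lay 36375 bases upstream (fold 22.2) and for Dbp 65569 bases upstream (fold 19.5), and Per1 and Cry2 had none within 50 kb. In all, 6 of the 9 had a summit within 50 kb, against 51.6% of genes, and 0 had one within 10 kb at a fold of at least 10, against 4.93%. The list rests on 1 ChIP library against 1 control, so it has no replicate check. It comes from cultured myotubes, not from the muscle in which RNA was measured.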

How the data were processed

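RNA came from hind limb muscle, in 12 libraries, and Flag-Myf6 ChIP from myotubes, in 1 library with 1 control. The authors deposited RPM per gene (scaled to 1000000 over 49585 genes) and their own log2 fold change, p-value and q-value for KO against WT. The submitters' processing notes name HISAT2 2.1.0, Bowtie 1.1.0, MACS2 2.1.0.20140616, SAMtools, featureCounts, DESeq2 and the builds mm10 and GRCm38.p5. Which build each file used, and the treatment of strand, are not given in the sources used here. Per the file headers, the peak list gives fold enrichment, pileup signal and −log10 p- and q-values at a q cutoff of 0.05. Peak distances take its build as mm10, whose chromosomes are those of GRCm38.p6.

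In every library 100% of tested values were whole reads within 0.1 read. Detection floors (3 reads) were 0.0607 to 1.60 RPM. They cover counting error only. The design provided for either unit, and the values were RPM, so the test was limma 3.58.1 (R 4.3.3; lmFit, eBayes with trend) on log2(RPM + 1), two-sided, keeping genes that reached 1 RPM in 3 or more of the fitted libraries, adjusted by Benjamini-Hochberg over all genes tested. KO was compared with WT on 6 libraries, and injury and animal on all 12. Differences understate changes of low genes. Alternatives were TMM and upper quartile scaling, a pseudocount of 0.1, other filters, edgeR 4.0.16 and DESeq2 1.42.0 on the recovered reads, a replicate block, all 12 libraries, the authors' q-values and each library left out. Scaling to reads outside mitochondrial genes and edgeR with the block were chosen after seeing the data. The code was tested on simulated data. Named are all 10 members, from each other list the genes that passed or else the 3 with the smallest p, and the 5 most and least like Arntl and Dbp. Some genes that this rule or a marker list would name are not reported here. Members and lists were chosen with earlier results of these data known. For injury, the pairing of libraries comes from the column numbers. The reported fits of injury and of the interaction had no animal term and did not use the pairing. Among the fits, it entered only in the test of animals and, for injury and the interaction, as the replicate block. Deviations of libraries of 1 animal correlated at 0.28, -0.23 and 0.02 in WT and 0.02, 0.50 and 0.63 in KO over 13337 genes.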

Additional observations from a re-analysis of the deposited data

Results flagged for a closer look

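Nr1d2 was looked at again because its injury change pointed in opposite directions in the 2 genotypes. It was lower in the injured than in the uninjured library of 3 of 3 WT animals and higher in 3 of 3 KO animals, with mean changes of -0.21 and 0.36 on the log2(RPM + 1) scale. All genes tested had a median KO injury change of 0.29. Upper quartile scaling brought the KO mean change of Nr1d2 to -0.013, so that the means were then both below 0. The injury change in KO minus that in WT was 0.57 ± 0.34 (SE), with an adjusted p of 0.9999 (limma interaction over 13337 genes; 0.117 unadjusted), so the difference did not pass. None of the 10 clock genes passed this interaction, nor did any gene (0.00%). At an unadjusted p under 0.05 it found 208 genes and 0 clock genes, and edgeR and DESeq2 called 0 genes. Opposite directions in all 6 animals were looked for in all 10 clock genes, and the share of all genes that show them was not computed.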

How the results depend on the processing

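For KO against WT in uninjured muscle, 1 clock gene passed, not 0, when libraries were scaled to their non-mitochondrial reads (Nr1d2, adjusted p = 0.0233), with DESeq2, with all 12 libraries in 1 limma fit (0.0263) and with edgeR with the replicate block (0.0422), where 1.69%, 5.32%, 1.25% and 3.14% of all genes passed. With the replicate block in limma 2 passed (Nr1d2, adjusted p = 0.00695, and Per3, 0.0463), against 6.04% of all genes. The numbers are not known to pair KO with WT animals: same-numbered deviations correlated at 0.04, 0.26 and 0.37 in uninjured and -0.45, -0.60 and -0.30 in injured muscle, and 2 and 0 libraries were best matched by their own number. The block changed no other call of a clock gene. Leaving out 1 library gave 0 to 4 clock genes in injured muscle and 0 to 1 in the test of animals. A summit within 50 kb was found for 6 genes, and 0 had one within 10 kb at a fold of at least 10. Over all genes, the uninjured count of 35 was 1 with no filter, 7 with 1 RPM in every library, 20 with the pseudocount of 0.1, 55 with edgeR, 107 with TMM, 156 with upper quartile scaling, 167 with 12 libraries, 210 outside mitochondrial genes, 331 by the authors' q-values, 391 and 752 with the block in edgeR and limma, 663 with DESeq2 and 3 to 84 with a library left out. The injured count of 34 was 0 with the block, 4 with 1 RPM in every library, 19 with no filter, 56 with 12 libraries, 225 by the authors' q-values, 427 with DESeq2 and 0 to 2343 with a library left out.

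Estimates changed sign as follows, and the cause was not tested. For KO against WT in uninjured muscle, Cry2, Nr1d1 and Dbp were at 0.19, 0.044 and 0.12 with TMM, 0.21, 0.065 and 0.14 with upper quartile scaling, 0.19, 0.017 and 0.077 with edgeR, 0.19, 0.021 and 0.084 with DESeq2, 0.18, 0.0038 and 0.080 with edgeR with the block, and 0.20, 0.028 and 0.090 in the authors' deposited table, with its sign turned to KO over WT. For injury in KO, Cry1 was at -0.10 with TMM, -0.19 with upper quartile scaling, -0.10 with edgeR, -0.11 with DESeq2 and -0.12 with edgeR with the block, and Nr1d2 was at -0.013 with upper quartile scaling. With a library left out, KO minus WT ranged in uninjured muscle from -0.38 to 0.37 for Cry2, from -0.60 to 0.29 for Nr1d1 and from -0.26 to 0.10 for Dbp. In injured muscle it ranged from -0.27 to 0.17 for Cry1, from -0.47 to 0.050 for Nr1d1 and from -0.10 to 0.18 for Dbp. The injury difference ranged in WT from -0.31 to 0.16 for Clock and from -0.017 to 0.60 for Per1. In KO it ranged from -0.068 to 0.46 for Cry1, from -0.10 to 0.79 for Nr1d1, from -0.077 to 0.88 for Per1, from -0.17 to 0.99 for Per2 and from -0.076 to 0.82 for Per3. Of the other values for single genes under an alternative, 941 kept their side of the threshold and 12 passed it. All of these kept their direction, except that the F-test over animals, which is among them, has none. The lowest Arntl value rests on 4 reads, in uninjured KO replicate 2, a library of 12704445 reads. Depth was lowest in uninjured WT replicate 2, at 1880087 reads. That library held 15 reads of Arntl, 21 of Cry1, 24 of Per2, 25 of Clock and 30 of Cry2.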
